A study of Homo sapiens with 2 samples.

Results

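Chromatin accessibility at the keratin and claudin genes was compared between Saos-2 and U2OS, a pair of established human cell lines derived from osteosarcoma. The genes were the protein-coding RefSeq genes on chromosomes 1 to 22 whose symbol is KRT with digits and an optional letter, or CLDN with digits. These were 77 genes, 55 keratins and 22 claudins, of 19126 protein-coding genes on those chromosomes; genes on chromosome X were not analysed here. In DNase-seq the nuclease DNase I cuts open chromatin, and a hotspot is a region enriched in such cuts. There was 1 library per line, and the labels give no treatment, passage or clone, so the groups differ by cell line only as far as the labels say. Without replicates there is no error between samples and no test, and every difference compares these 2 libraries. Positions are on hg38.

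Keratins are the intermediate filament proteins of epithelial cells. A type I keratin pairs with a type II keratin, and the genes of each type lie in a cluster of their own, with the exception of KRT18, a type I gene next to KRT8 in the type II cluster. Claudins are membrane proteins of the tight junction that seal the space between epithelial or endothelial cells or form ion-selective pores in it, and their genes are scattered as singles and pairs. Osteosarcoma arises from mesenchymal, bone-forming cells, in which vimentin is the usual cytoplasmic intermediate filament.

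The Saos-2 list held 51556 hotspots and the U2OS list 63388, a ratio of 1.23, and the ratio of covered bases was 1.25. The number of reads behind each list is unknown, and a difference in depth cannot be told apart from a difference in accessibility. Of 10 osteoblast marker genes, 9 had a hotspot within their span plus 10 kb in both lines, and SPP1, which encodes osteopontin, had none in either. Of 8 mesenchymal markers, 6 had one in Saos-2 and 8 in U2OS. Of 8 epithelial markers, 7 had one in each line. ELF3, an epithelial transcription factor, had hotspots in U2OS alone, and EPCAM, an epithelial adhesion protein, had 1 in Saos-2 alone. Of all protein-coding genes on chromosomes 1 to 22, 75.8% had a hotspot in Saos-2, 82.6% in U2OS and 71.8% in both. Nothing about cell type is read from these short marker lists.

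A gene's window was its RefSeq span plus 10 kb on each side, and a hotspot counted for the gene when it overlapped the window by at least 1 bp. In Saos-2, 35 of the 77 genes (45.5%, Wilson 95% interval 34.8 to 56.5%) had a hotspot, against 75.8% of all protein-coding genes on the same chromosomes. In U2OS, 54 genes (70.1%, interval 59.2 to 79.2%) had one, against 82.6% of all genes. Both lines had a hotspot at 33 genes, and 21 genes had none in either. Hotspots in U2OS alone were found at 21 genes (27.3%, interval 18.6 to 38.1%), where all genes gave 10.9%. Hotspots in Saos-2 alone were found at 2 genes, CLDN5 and CLDN18 (2.6%, interval 0.715 to 8.98%), where all genes gave 4.08%. Intervals cover counting error only, and neighbouring genes share windows, so they are too narrow.

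Keratin and claudin genes are short, with a median span of 6316 bp against 24477 bp for all genes, and a short gene has a smaller window. Among genes with a span of at most 20 kb, 63.0% had a hotspot in Saos-2 and 70.5% in U2OS. The 68 keratin and claudin genes of that length had one in 27 cases in Saos-2 (39.7%) and in 46 cases in U2OS (67.6%). In U2OS their share therefore lay near that of other short genes, and in Saos-2 it lay lower. Hotspots in U2OS alone were at 20 of the 68 (29.4%) against 12.9% of short genes. Hotspots in Saos-2 alone were at 1 of the 68, against 5.49% of short genes.

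The length covered by hotspots gave the same order. Of the 56 genes with a hotspot in either line, 45 had more covered bases in U2OS (80.4%, interval 68.2 to 88.7%) and 11 had more in Saos-2, while 61.9% of all covered genes had more in U2OS. The median over the 77 genes was 0 bp for Saos-2 against 294 bp for U2OS, and over all genes it was 442 against 554 bp. With spans of at most 20 kb it was 0 against 284 bp for the 68 keratin and claudin genes and 245 against 334 bp for all genes, so the distance from the background was smaller in U2OS.

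**Figure D1:**
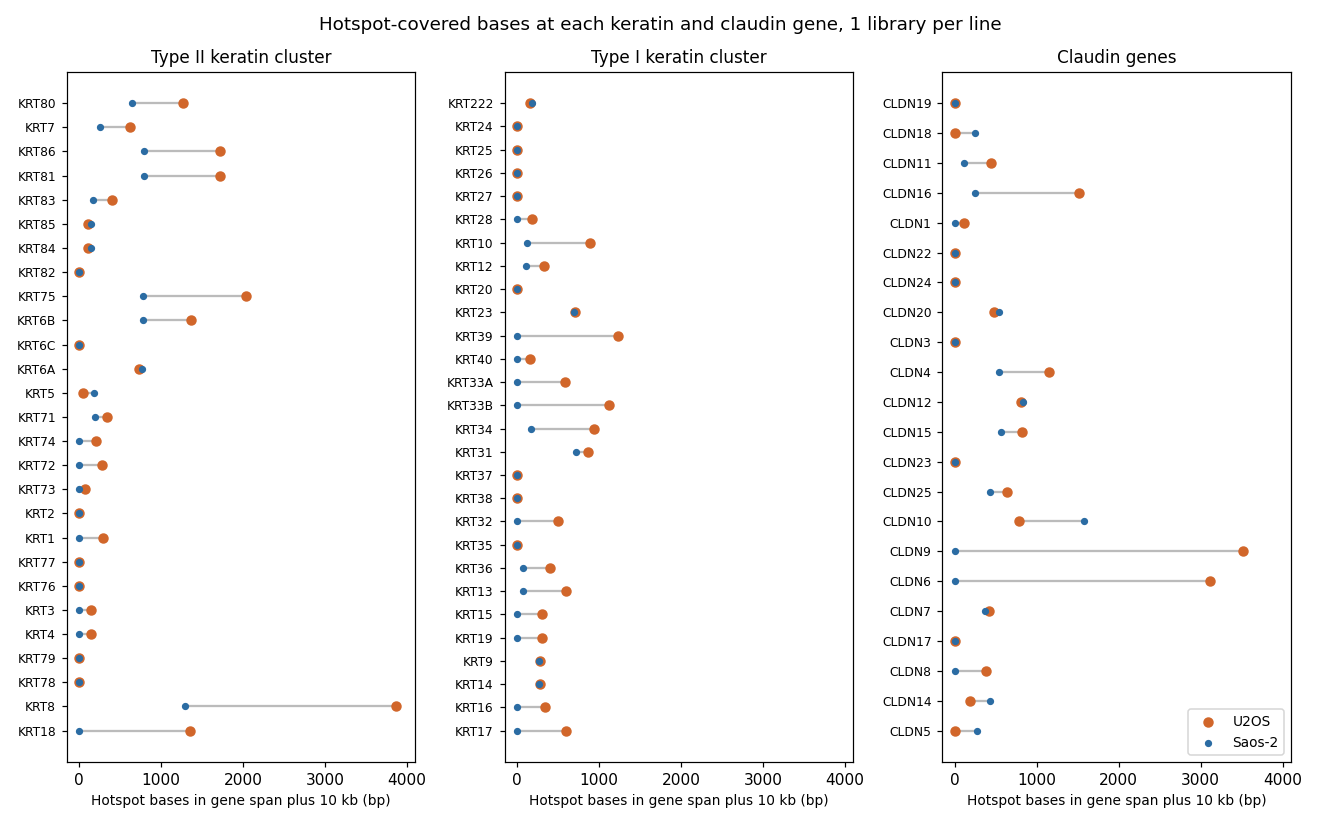
Hotspot-covered bases (x axis, bp) within the span plus 10 kb of each of the 77 genes (y axis, in chromosome order), with Saos-2 as small blue and U2OS as large orange points, 1 library each. U2OS is to the right at 45 genes and Saos-2 at 11, and the widest separations are at CLDN9, CLDN6 and KRT8.

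Neighbouring genes often shared a hotspot, so hotspots were also counted once. The 77 windows held 52 distinct hotspots in Saos-2, 7 of them in the windows of more than 1 gene, and 98 in U2OS, 28 of them in several windows. The 21 genes covered in U2OS alone rested on 31 distinct hotspots at 5 loci. Of the 52 Saos-2 hotspots, 38 (73.1%, interval 59.7 to 83.2%) overlapped a U2OS hotspot, and over the genome 58.1% did. In the other direction, 36 of the 98 U2OS hotspots (36.7%, interval 27.9 to 46.6%) had a Saos-2 counterpart, and over the genome 46.9% did. Merged over both lists there were 112 sites, of which 36 were shared, 14 were particular to the Saos-2 list and 62 to the U2OS list.

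Each hotspot carries the authors' −log10 significance, which runs from 1.3, the threshold of the lists, to a limit of 100. At the 36 shared U2OS hotspots the median was 7.48 in U2OS and 4.65 in Saos-2, and 25 of them had the higher value in U2OS (69.4%), as did 62.0% of shared autosomal hotspots. The 62 U2OS hotspots without overlap had a median of 4.05 and a highest value of 27.7, and the 14 in Saos-2 a median of 2.86 and a highest value of 10.9. These values depend on the depth of each library.

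**Figure D2:**
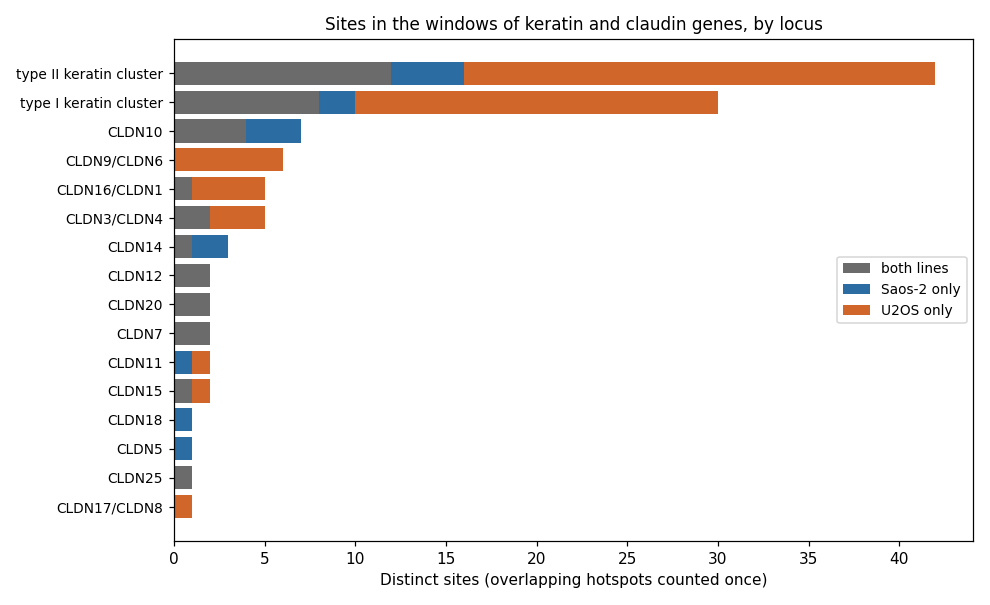
Number of distinct sites (x axis) in the windows of the keratin and claudin genes at each locus with a site (y axis), split into shared sites and sites of either list alone. The type II and type I keratin clusters hold 42 and 30 sites, mostly in U2OS only; CLDN10 and CLDN14 have sites in both lines and in Saos-2 only.

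Members within 500 kb of each other on a chromosome were treated as 1 locus, which gave the type II keratin cluster on chromosome 12, the type I keratin cluster on chromosome 17 and 17 claudin loci. The type II cluster holds 27 of the genes, from KRT80 to KRT18. Saos-2 had 18 hotspots in its windows and U2OS had 38, a ratio of 2.11, and 5233 against 11849 covered bases. Both lines had a hotspot at 13 of the genes, U2OS alone at 7 and neither line at 7, and no gene was covered in Saos-2 alone. U2OS alone covered 10.9% of all protein-coding genes and 12.9% of those with a span of at most 20 kb. The 2 Mb on either side of the cluster had 102 Saos-2 and 154 U2OS hotspots, a ratio of 1.51, and chromosome 12 as a whole had a ratio of 1.24. The part of such regional differences in the cluster's values was not tested.

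KRT86 and KRT81, hair cortex keratins whose windows overlap, carried the hotspots of highest significance near any keratin in both lines. In U2OS the hotspot at 52280288 to 52281318, inside the KRT86 span, was 1031 bp wide with a value of 33.1. Saos-2 had 2 hotspots on the same stretch, at 52280329 to 52280609 with a value of 3.40 and at 52280845 to 52281350 with a value of 30.8. This site was thus strong in both libraries. A second U2OS hotspot, at 52285130 to 52285619 near the lower-coordinate end of KRT81, had a value of 14.8 and no overlap in Saos-2. KRT83, another hair cortex keratin, had 1 hotspot in each line on the same site, where Saos-2 had 170 bp at a value of 2.90 and U2OS had 400 bp at 28.0.

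KRT75, a keratin of the companion layer of the hair follicle, had 2 Saos-2 hotspots (775 bp) and 4 U2OS hotspots (2032 bp). The site at 52442534 to 52443164, shared with the window of KRT6B, had a value of 20.7 in U2OS and 14.04 in Saos-2. The U2OS hotspots at 52434335 to 52434548, on the KRT75 start, and at 52435985 to 52436442 were absent from the Saos-2 list. KRT80, a widely expressed type II keratin, had 646 covered bases in Saos-2 and 1273 in U2OS, with a site at its higher-coordinate end in both lines. KRT7, of simple and glandular epithelia, had 1 hotspot in Saos-2 (261 bp) and 2 in U2OS (616 bp), and the one inside the gene was shared. KRT5, the type II keratin of basal epidermal cells, went the other way with low values, with 183 bp at 2.84 in Saos-2 and 51 bp at 1.53 in U2OS, at different positions.

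The middle of the cluster was nearly empty. In Saos-2 no hotspot was called over 332 kb, from 52539358 to 52871296, which contains 12 genes from KRT71 to KRT78. In U2OS the longest such stretch was 127 kb and contained KRT1, KRT77, KRT76 and KRT3, and no Saos-2 hotspot lay in it. KRT1 and KRT2, type II keratins of the suprabasal epidermis, had 1 U2OS hotspot (value 3.14) and none, respectively.

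KRT8 and KRT18 encode the keratin pair of simple epithelia, and their RefSeq spans overlap by 1006 bp. KRT8 (gene 3856, chromosome 12, 52897191 to 52949860) has a span of 52.7 kb in the table. Its window held 4 hotspots in Saos-2, with values of 5.92, 3.11, 4.14 and 13.9, and 15 in U2OS, with values from 1.34 to 22.6. KRT18 (gene 3875, 52948855 to 52952906) had no hotspot in Saos-2 and 5 in U2OS. These 5 also lie in the KRT8 window, so the locus totals were 4 for Saos-2 and 15 for U2OS.

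The positions within the locus differed. The sites at 52924998 to 52925758 and 52927062 to 52927771, inside the KRT8 span, were present in both lines, with values of 14.99 and 22.6 in U2OS and 4.14 and 13.9 in Saos-2. The U2OS hotspots at 52949723 to 52950111, across the higher-coordinate end of KRT8 and inside KRT18, with a value of 18.3, and at 52945820 to 52946284, with a value of 11.6, had no counterpart in Saos-2. Of the 16 sites at the locus, 3 were shared, 1 belonged to Saos-2 alone and 12 to U2OS alone. Here 20% of the 15 U2OS and 75% of the 4 Saos-2 hotspots overlapped the other list, against 46.9% and 58.1% over the genome. Many of the U2OS hotspots were weak, as their median value at the locus was 2.75, below the 4.6 of the whole U2OS list. In Saos-2 the median was 5.03 at the locus and 4.05 in the whole list. Without KRT8 and KRT18, the type II cluster totals were 14 for Saos-2 and 23 for U2OS, a ratio of 1.64.

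**Figure D3:**
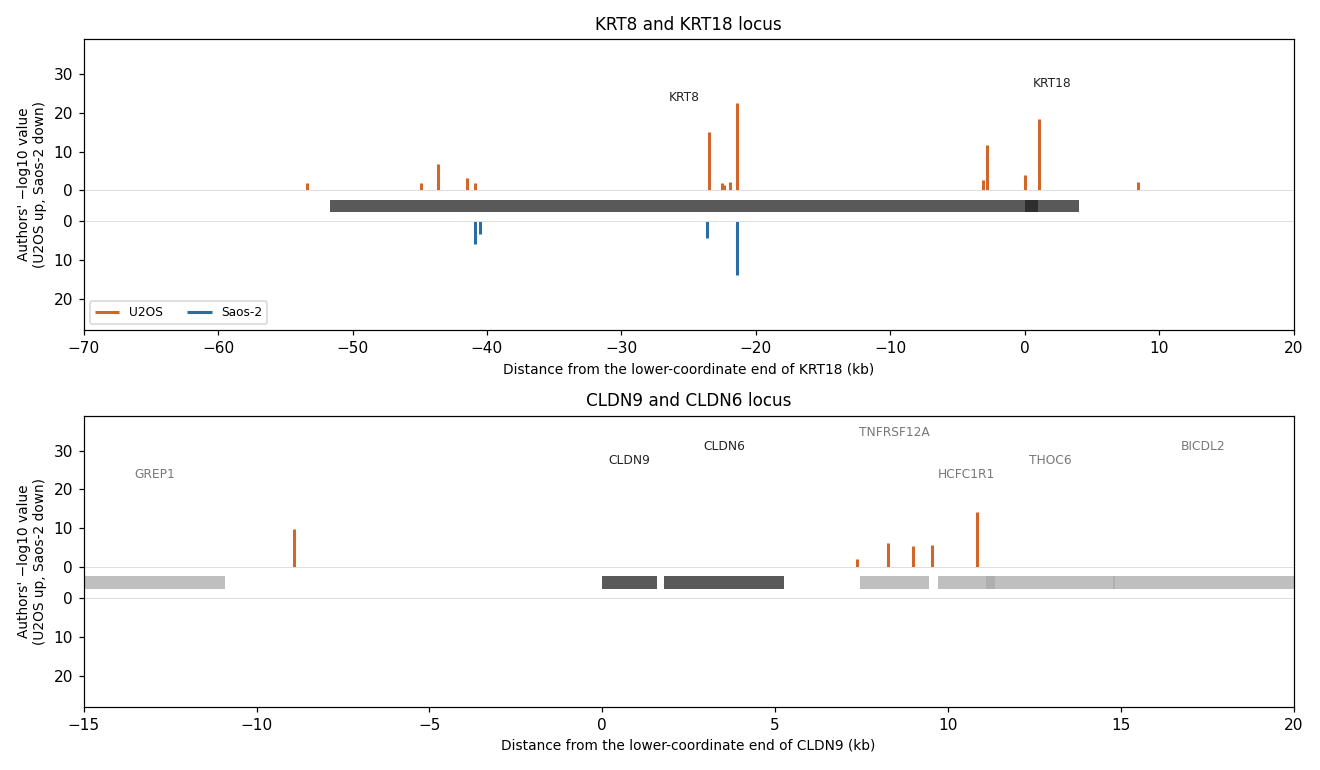
Hotspots at the KRT8 and KRT18 locus and at the CLDN9 and CLDN6 locus, with the distance from the lower-coordinate end of KRT18 or CLDN9 on the x axis (kb) and the authors' −log10 value on the y axis, U2OS upwards and Saos-2 downwards; black boxes are keratin or claudin spans and grey boxes other protein-coding genes. At KRT18 and at CLDN9 and CLDN6 only U2OS has hotspots, and at the claudin pair they lie beside the claudin spans.

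The type I cluster holds 28 of the genes, from KRT222 to KRT17, with a stretch of keratin-associated protein genes in its middle. Saos-2 had 10 hotspots in its windows and U2OS had 28, a ratio of 2.8, and 2368 against 8361 covered bases. Both lines had a hotspot at 10 genes, U2OS alone at 10 and neither line at 8. U2OS alone covered 10.9% of all protein-coding genes and 12.9% of those with a span of at most 20 kb. Of 30 sites in the cluster, 8 were shared, 2 belonged to Saos-2 alone and 20 to U2OS alone. In the cluster 28.6% of U2OS hotspots and 80% of Saos-2 hotspots overlapped the other list, against 46.9% and 58.1% over the genome. The 2 Mb on either side had 145 Saos-2 and 210 U2OS hotspots, a ratio of 1.45, and chromosome 17 a ratio of 1.14; their part in the cluster's ratio was not tested. Over the whole interval of the cluster the density was 1.82 hotspots per 100 kb in Saos-2 and 4.14 in U2OS, and over the autosomes it was 1.74 and 2.15. In the interval of the type II cluster it was 2.61 and 5.22.

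The hair keratins of the type I cluster supplied its strongest sites. At KRT33A and KRT33B, adjacent keratins of the hair cortex, Saos-2 had no hotspot. U2OS had one between the genes at 41360483 to 41361068 with a value of 27.7, and one inside KRT33B at 41367584 to 41368126 with a value of 17.9. The next genes differed from this. KRT34 had a shared site with a value of 2.42 for Saos-2 against 10.9 for U2OS, and the site beside KRT31 had nearly equal values, 19.9 in Saos-2 and 20.3 in U2OS. KRT39, a keratin of the hair cuticle, had none in Saos-2 and 4 in U2OS (1230 bp), of which the strongest, at 40956743 to 40957216, had a value of 21.0.

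Among the other type I keratins, KRT10, the suprabasal partner of KRT1, had 1 hotspot of 129 bp in Saos-2 and 3 in U2OS (889 bp). Of the latter, 2 lay inside the gene, and the strongest, at 40810543 to 40810916, had a value of 17.4 and no overlap in Saos-2. KRT14, the basal partner of KRT5, shared its only site with KRT9, with a value of 8.65 in Saos-2 and 6.16 in U2OS. KRT12, of the cornea, had 1 site with a value of 2.24 for Saos-2 against 14.96 for U2OS, and KRT23, listed with the simple-epithelium keratins, had a shared site with values of 11.2 and 15.6.

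KRT17, a keratin of hair follicles and injured epidermis, had no hotspot in Saos-2 and 3 in U2OS, with a highest value of 3.88. The other 2 lay within 1 kb of its ends, with values of 1.57 and 2.87, and the 3.88 site also lay in the window of KRT16. KRT19, the smallest keratin of simple epithelia, shared 1 U2OS hotspot of 311 bp (value 4.67) with KRT15 and had none in Saos-2. The median value of all U2OS hotspots was 4.6, so the KRT19 hotspot lay at about the middle of the list and the KRT17 hotspots below it. Genes from KRT24 to KRT27 and KRT20 had none in either line, and the longest stretch of the cluster without a hotspot in either line was 155 kb.

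**Figure D4:**
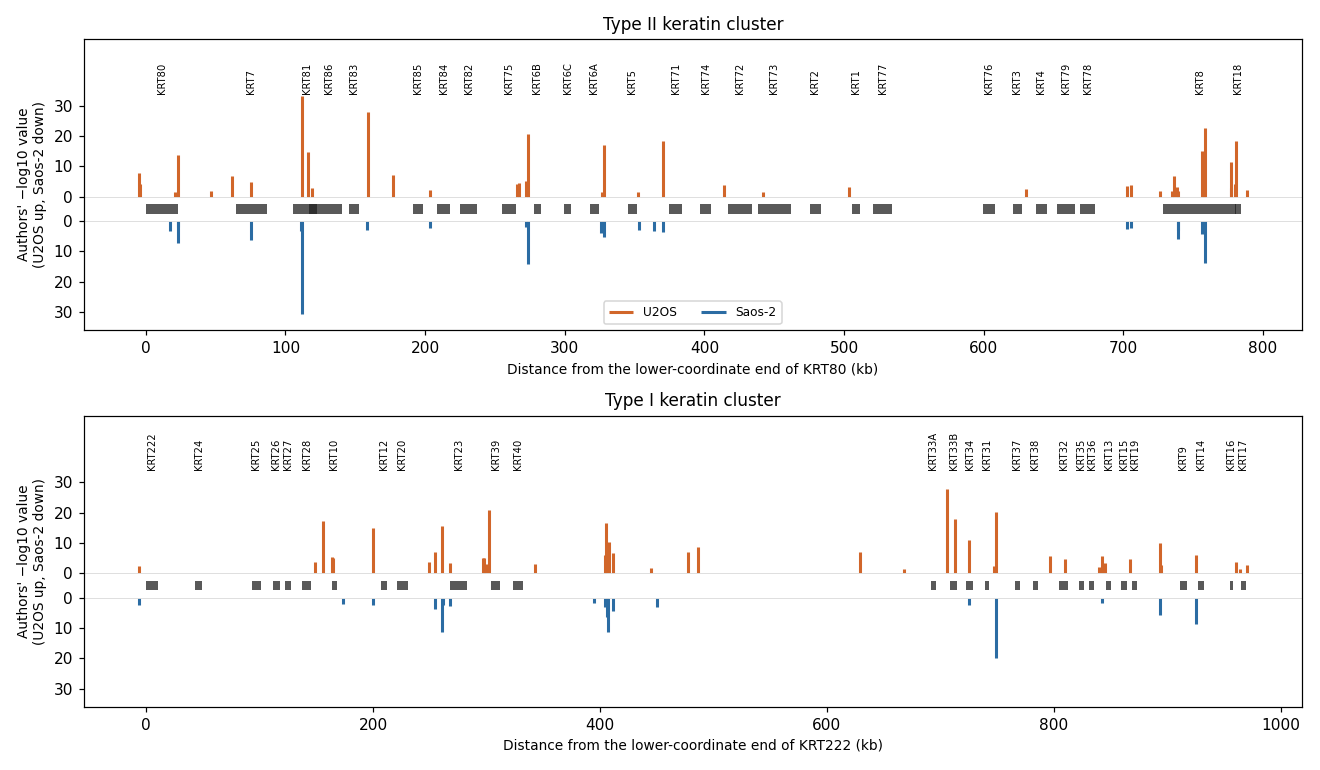
Hotspots across the type II and type I keratin clusters, with the distance from the lower-coordinate end of KRT80 or KRT222 on the x axis (kb) and the authors' −log10 value on the y axis, U2OS upwards and Saos-2 downwards; boxes are the keratin genes, and hotspots outside the 10 kb windows are drawn too. U2OS has more and taller marks, and both lines leave the stretch around KRT77 and KRT76 and the genes from KRT24 to KRT27 empty.

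By expression type, the 8 keratins of simple epithelia (with KRT80, KRT23 and KRT222 placed in that list) had a hotspot in 5 cases in Saos-2 and 7 in U2OS. Of the 8 basal and stress keratins, 4 and 7 had one, and of the 17 hair keratins 8 and 13. The inner root sheath list, in which KRT75 of the companion layer was placed, had one in 2 of 9 in Saos-2 and 6 of 9 in U2OS. KRT75 was among those covered in both lines. Of the 13 suprabasal keratins, 4 and 7 had one. In each list more genes were covered in U2OS than in Saos-2, and no keratin was covered in Saos-2 alone. Of all protein-coding genes with a span of at most 20 kb, 70.5% were covered in U2OS and 63.0% in Saos-2. Only 5.49% of them were covered in Saos-2 alone, so the order of the lines was the same in that background. KRT6A, KRT6B and KRT6C, as well as KRT81, KRT83 and KRT86, and KRT14, KRT16 and KRT17, are closely similar within their groups. How reads from such copies were treated is not given in the sources used here, so their values are uncertain.

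The 22 claudin genes were more evenly divided than the keratins. Their windows held 24 hotspots in Saos-2 and 32 in U2OS, a ratio of 1.33, and 6165 against 11116 covered bases. The order turned with gene spans only, to 16 in Saos-2 and 14 in U2OS, and lists of equal length gave 24 and 26. Both lines covered 10 genes, Saos-2 alone 2, U2OS alone 4 and neither line 6. Of all protein-coding genes on chromosomes 1 to 22, 71.8% were covered in both lines, 4.08% in Saos-2 alone and 10.9% in U2OS alone. The whole lists had a hotspot ratio of 1.23, near that of the claudins. More bases were covered in U2OS at 10 claudins and in Saos-2 at 6, where 61.9% of all covered genes had more in U2OS. Among the keratins these numbers were 35 and 5, with 28 and 66 hotspots, a ratio of 2.36. The difference between the families was not tested.

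CLDN9 and CLDN6 lie 206 bp apart on chromosome 16 (CLDN9, gene 9080, 3012923 to 3014505; CLDN6, gene 9074, 3014712 to 3018183). CLDN6 is a claudin of embryonic epithelia, and CLDN9 is needed in the inner ear. Saos-2 had no hotspot in either window and U2OS had 6, which covered 3512 bp for CLDN9, with 5 of them (3117 bp) also in the window of CLDN6. None of the 6 lay within a claudin gene or within 1 kb of an end of one. The 5 above CLDN6, from 3020244 to 3024469, lay within 1 kb of an end of TNFRSF12A, the receptor for the cytokine TWEAK, 4 of them also of HCFC1R1, and the last, 1402 bp wide with a value of 14.1, of THOC6 too. The sixth, at 3003819 to 3004213 with a value of 9.80, lay between genes. The 2 Mb on either side had 126 Saos-2 and 189 U2OS hotspots, a ratio of 1.5.

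CLDN16, which serves magnesium reabsorption in the kidney, has a span that contains CLDN1, a claudin of the epidermal barrier. CLDN16 had 1 hotspot in Saos-2 and 5 in U2OS. The shared site at 190386087 to 190386667 had a value of 16.5 in U2OS and 4.29 in Saos-2, and the other U2OS values ran from 2.25 to 9.19. CLDN1 itself was left with the weakest of these, 115 bp wide, in U2OS and with none in Saos-2. CLDN4, a barrier claudin, had 2 hotspots in Saos-2 (544 bp) and 5 in U2OS (1151 bp), but the strongest site, at 73822530 to 73822973, was higher in Saos-2, at 14.4 against 7.67. The neighbouring CLDN3 had none in either line.

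CLDN12 (gene 9069, chromosome 7, 90403461 to 90415954) was the claudin with the highest values in both lines. It had 2 hotspots within 1 kb of its start in each line, with values of 16.4 and 24.4 in Saos-2 and 31.0 and 21.0 in U2OS, and 830 against 810 covered bases. The order of the lines thus differed between these adjacent sites. CLDN7, CLDN15 and CLDN25 were also covered in both lines, but each of their hotspots lay at an end of another gene. These were CTDNEP1 and ELP5 for CLDN7, FIS1 for CLDN15 and ZW10 for CLDN25. CLDN20 lies inside the span of TFB1M and had 2 shared sites.

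Coverage was higher in Saos-2 at 6 claudins: by little at CLDN12 (above) and CLDN20 (541 against 477 bp), and by more at the other four. CLDN5, the main claudin of the blood-brain barrier endothelium, had 1 Saos-2 hotspot of 272 bp with a value of 8.13, and none in U2OS. CLDN18, of stomach and lung, had 1 of 252 bp with a value of 5.99, and none in U2OS. CLDN10, a claudin of ion-selective pores in the kidney, had 7 Saos-2 hotspots (1582 bp) and 4 U2OS hotspots (780 bp), and all 4 overlapped a Saos-2 hotspot. CLDN14, of the inner ear and kidney, had 3 in Saos-2 (431 bp) and 1 in U2OS (185 bp). The surrounding 2 Mb on either side had U2OS to Saos-2 ratios of 1.14 for CLDN5, 0.526 for CLDN18, 1.03 for CLDN10 and 0.587 for CLDN14, so near CLDN18 and CLDN14 the wider region also had more hotspots in Saos-2; the part of this was not tested.

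CLDN11, the claudin of myelin and of the testis barrier, had 1 hotspot in each line at different positions, inside the gene in Saos-2 (115 bp, value 2.23) and before its lower-coordinate end in U2OS (437 bp, value 6.09). CLDN8 had 1 U2OS hotspot of 383 bp with a value of 13.7 and none in Saos-2. CLDN3, CLDN17, CLDN19, CLDN22, CLDN23 and CLDN24 had none in either line.

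The hotspots were also sorted by their place relative to gene ends. Within 1 kb of an end of such a gene were 5 of the 52 Saos-2 hotspots and 15 of the 98 in U2OS. A further 6 in Saos-2 and 12 in U2OS were within 1 kb of an end of another protein-coding gene. Of the latter, 5 and 11 were at claudin loci, where they made up 5 of 24 and 11 of 32 hotspots, and 1 in each line was at a keratin, KRT222, beside SMARCE1. The remaining hotspots lay inside keratin or claudin spans (23 in Saos-2 and 31 in U2OS) or between genes (18 and 40). By gene, 3 of 77 had a hotspot within 1 kb of either end in Saos-2 (3.9%), against 48.6% of all protein-coding genes, and 12 in U2OS (15.6%), against 54.1%. The 3 were KRT80, KRT23 and CLDN12, and the 12 were these 3 with CLDN4, KRT5, KRT8, KRT10, KRT13, KRT17, KRT18, KRT75 and KRT81.

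Promoters were taken as the RefSeq windows from 250 bases before to 50 after a gene start on GRCh38.p14, whose primary chromosomes are those of hg38. The table had 62 such windows for 51 of the 77 genes (34 keratins and 17 claudins). In Saos-2 a promoter hotspot was found for 1 of the 51 genes, CLDN12 (1.96%, interval 0.347 to 10.3%), against 47.9% of all genes with a window. In U2OS it was found for 4, CLDN12, CLDN4, KRT75 and KRT8 (7.84%, interval 3.09 to 18.5%), against 52.2%. With the U2OS list reduced to the length of the Saos-2 list, CLDN12 and KRT75 kept a promoter hotspot in U2OS, and CLDN4 and KRT8 did not. The 26 genes without a window could not be judged in this way. Among them, a U2OS hotspot with a value of 4.03 crossed the lower-coordinate end of KRT18. Both lines had a hotspot across the higher-coordinate end of KRT80. The windows of CLDN12, CLDN4, KRT75 and KRT8 are printed 5′ to 3′, from RefSeq, because they are the windows that a hotspot overlaps. Capitals mark the bases under a U2OS hotspot, and the gene starts after the first 250 bases. They lie at chr7:90403211-90403510 (plus strand, CLDN12), chr7:73830746-73831045 (plus strand, CLDN4), chr12:52434322-52434621 (minus strand, KRT75) and chr12:52926420-52926719 (minus strand, KRT8).
CLDN12: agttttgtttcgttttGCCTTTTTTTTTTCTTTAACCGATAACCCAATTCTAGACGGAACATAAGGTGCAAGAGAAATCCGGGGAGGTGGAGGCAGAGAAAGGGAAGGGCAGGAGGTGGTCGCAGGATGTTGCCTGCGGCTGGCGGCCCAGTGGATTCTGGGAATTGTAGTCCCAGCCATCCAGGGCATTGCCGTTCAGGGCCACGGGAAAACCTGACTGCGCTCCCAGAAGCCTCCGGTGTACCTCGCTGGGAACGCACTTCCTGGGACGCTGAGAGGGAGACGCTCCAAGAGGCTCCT
CLDN4: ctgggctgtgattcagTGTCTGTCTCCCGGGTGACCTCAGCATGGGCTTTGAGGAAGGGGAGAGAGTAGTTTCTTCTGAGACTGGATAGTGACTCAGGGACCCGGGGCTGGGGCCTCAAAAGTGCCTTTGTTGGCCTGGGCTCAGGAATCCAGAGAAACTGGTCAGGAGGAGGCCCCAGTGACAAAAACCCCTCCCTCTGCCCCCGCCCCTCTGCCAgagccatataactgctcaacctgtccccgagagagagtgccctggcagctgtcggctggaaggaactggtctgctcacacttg
KRT75: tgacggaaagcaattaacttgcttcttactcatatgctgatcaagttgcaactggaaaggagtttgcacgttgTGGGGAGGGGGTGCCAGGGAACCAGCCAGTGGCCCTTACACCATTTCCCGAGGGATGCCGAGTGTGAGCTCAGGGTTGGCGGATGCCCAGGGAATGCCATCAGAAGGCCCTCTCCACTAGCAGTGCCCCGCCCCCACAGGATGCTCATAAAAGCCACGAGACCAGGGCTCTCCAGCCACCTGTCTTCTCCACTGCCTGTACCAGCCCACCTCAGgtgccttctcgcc
KRT8: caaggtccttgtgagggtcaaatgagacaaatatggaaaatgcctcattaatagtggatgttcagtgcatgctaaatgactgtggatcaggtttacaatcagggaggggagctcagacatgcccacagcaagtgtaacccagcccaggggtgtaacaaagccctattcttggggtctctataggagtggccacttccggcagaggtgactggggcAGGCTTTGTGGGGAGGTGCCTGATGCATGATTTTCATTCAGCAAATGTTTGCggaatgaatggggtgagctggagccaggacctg

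U2OS hotspots covered 284 of the 300 bases in CLDN12, 201 in CLDN4, 214 in KRT75 and 52 in KRT8. Saos-2 hotspots covered all 300 bases in CLDN12 and none in the others. The KRT8 hotspot was near the threshold, with a value of 1.34, the CLDN4 hotspot had 2.11 and the KRT75 hotspot 4.11, against 31.0 at CLDN12. The KRT8 window, the only one given for this gene, is a start inside the 52.7 kb span. Hotspots at any other start of KRT8 are not counted here, and the stronger U2OS hotspots of the locus lay elsewhere.

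The windows were searched on both strands for 6 motifs: TATAAA (the TATA box), GGGCGG (the GC box), TGANTCA (AP-1), CACCTG (an E-box of SNAI and ZEB repressors), AACCNGTT (grainyhead factors) and CCGGAAG (ETS). A match is a description of letters, not a site of binding. The hotspot-covered part of CLDN4 held TGACTCA, 161 bases before the start, and the GC box as CCGCCC, 47 bases before it; a second AP-1 match, TGATTCA, lay outside, 242 bases before. In KRT75 the covered part held CCGCCC, 50 bases before the start, and CACCTG, 1 base before it. KRT8 had 1 match, CTTCCGG, 58 bases before the start and outside the covered part. CLDN12 had none of the 6. Of all 21156 protein-coding promoter windows, 6.08% held TGANTCA, 56.6% GGGCGG, 20.1% CACCTG, 1.65% AACCNGTT, 12.9% CCGGAAG and 9.51% TATAAA.

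A low CpG content was common to all keratin promoter windows and a TATA box to many, neither of which the choice of the genes used. By gene, 21 of 34 keratins (61.8%) had TATAAA in a window on either strand and 13 had none, against 1 of 17 claudins (5.88%) and 12.5% of all genes. In 16 keratins it lay on the gene's strand 27 to 31 bases before the start. The GC box was in 6 of 34 keratins (17.6%) and 10 of 17 claudins (58.8%), against 64.6% of all genes. TATAAA was in 9 hair keratins of the type I cluster. Of the genes from KRT33A to KRT35, the 7 with TATAAA are printed to show its place, 28 to 31 bases before the start. KRT32, which lies between KRT38 and KRT35, had no TATAAA in its window and is not printed. In KRT40 the motif lay 29 bases before the start, and in KRT39 farther off, at position -85. The print gives 60 bases on the minus strand of chromosome 17, from 45 bases before the start to 15 after it, with TATAAA in capitals. Their starts lie in neighbouring genes between 41350814 and 41481196.
KRT33A: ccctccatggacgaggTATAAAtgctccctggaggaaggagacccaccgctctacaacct
KRT33B: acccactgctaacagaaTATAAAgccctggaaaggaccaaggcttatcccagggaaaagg
KRT34: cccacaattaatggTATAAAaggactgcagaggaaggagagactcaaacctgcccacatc
KRT31: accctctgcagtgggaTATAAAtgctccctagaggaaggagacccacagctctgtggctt
KRT37: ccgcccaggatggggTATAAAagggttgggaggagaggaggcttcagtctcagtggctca
KRT38: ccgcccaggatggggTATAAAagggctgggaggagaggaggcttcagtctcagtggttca
KRT35: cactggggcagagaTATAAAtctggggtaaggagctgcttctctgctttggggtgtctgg

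None of these 7 promoter windows was covered by a hotspot in either line. All 7 have an observed to expected CpG ratio below 0.6. Of all such promoter windows, 10.7% were covered in Saos-2 and 12.7% in U2OS. KRT33A, KRT33B, KRT34 and KRT31 had hotspots within their span plus 10 kb in U2OS, and KRT34 and KRT31 also in Saos-2. KRT37, KRT38 and KRT35 had none in their windows in either line.

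The observed to expected CpG ratio had a median of 0.151 in the 38 keratin windows, 0.411 in the 24 claudin windows and 0.743 in all windows. A ratio below 0.6 was found in all 38 keratin windows and in 16 claudin windows, against 37.4% of all windows. Such low-CpG windows seldom carried a hotspot in the genome at large, with 10.7% covered in Saos-2 and 12.7% in U2OS. Of the 54 low-CpG keratin and claudin windows, 0 were covered in Saos-2 (upper Wilson bound 6.64%) and 3 in U2OS (5.56%, interval 1.91 to 15.1%). In U2OS the interval held the 12.7% of all low-CpG windows, and in Saos-2 the upper bound lay below their 10.7%. These intervals cover counting error only. Some genes supply several windows, with 4 for KRT40 and 3 for CLDN14, and many genes are neighbours, so the intervals are too narrow. The lines differ here by 3 windows, too few to tell them apart. Any part of CpG content in the missing promoter hotspots was not tested. Of the 8 windows with a higher ratio, all in claudins, only CLDN12 was covered, in both lines (12.5%, interval 2.24 to 47.1%). Over all protein-coding promoter windows of any ratio, 40.4% were covered in Saos-2 and 44.3% in U2OS. The share for the CpG-rich ones alone is not given here. CLDN1, CLDN3, CLDN6, CLDN7, CLDN10 and CLDN11 each had a CpG-rich window with no hotspot.

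**Figure D5:**
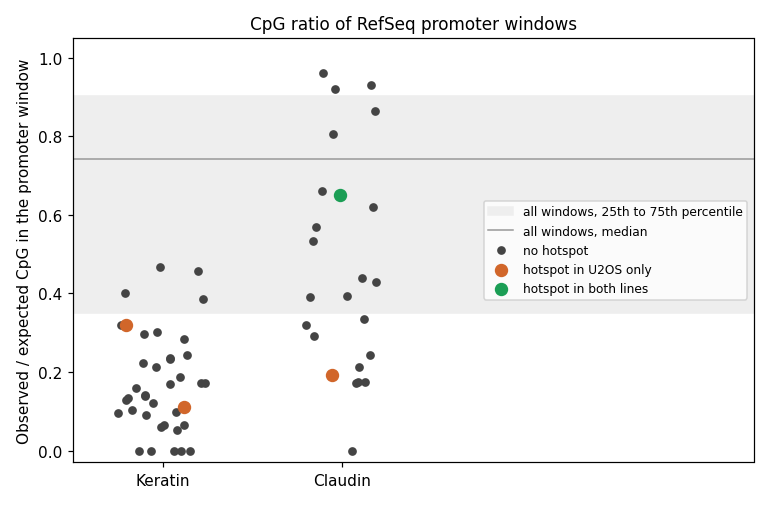
Observed to expected CpG ratio (y axis) of the RefSeq promoter windows of keratin and claudin genes (x axis, points spread sideways for legibility), coloured by whether a hotspot overlaps the window; the grey band is the 25th to 75th percentile of all protein-coding windows and the line their median of 0.743. All keratin windows lie below 0.6, most of them below the band, and 1 claudin window, of CLDN12, has a hotspot in both lines.

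Partner genes of the same structures were described with the same windows. Of 22 further tight junction genes, 18 had a hotspot in Saos-2 and 20 in U2OS, and the covered length was greater in U2OS at 16 and in Saos-2 at 5. TJP1, the scaffold that binds claudin tails, had 3774 against 6288 bp. OCLN, which encodes occludin, had 651 bp in Saos-2 and none in U2OS. Of 16 desmosome genes, which anchor keratin filaments, 10 had a hotspot in Saos-2 and 12 in U2OS. Their covered length was greater in U2OS at 9 and in Saos-2 at 3. DSP, the desmoplakin that holds the filaments, had 327 bp for Saos-2 against 615 for U2OS. JUP, of the same list, went the other way, at 1072 against 839. Of all genes, 75.8% had a hotspot in Saos-2 and 82.6% in U2OS, and 61.9% of covered genes had more bases in U2OS; nothing is read from these lists beyond their counts. The desmosomal genes DSG1, DSG4, DSC1 and DSC2 had none in either line.

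Of 16 regulators of the epithelial programme 13 had a hotspot in Saos-2, 15 in U2OS and 12 in both, where 71.8% of all genes had one in both. Of 18 epithelial adhesion and basement membrane genes 16 and 17 had one. Covered length was greater in U2OS at 10 of the regulators and 13 of the adhesion genes. It was greater in Saos-2 at 6 and 5, respectively. CDH1, which encodes E-cadherin, had 3 hotspots in Saos-2 (695 bp) and 11 in U2OS (2536 bp). RAB25, also of the adhesion list, went the other way, with 4 hotspots (1108 bp) against 2 (611 bp). Of the 15 intermediate filament genes that are not keratins, 11 had a hotspot in each line, and more bases were covered in U2OS at 7 and in Saos-2 at 5. VIM, which encodes vimentin, had 1 hotspot in each line, with 302 bp at 3.70 for Saos-2 and 346 bp at 4.21 for U2OS. Many genes of these lists have longer spans than keratins, so their counts are not set against the keratin counts.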

How the data were processed

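DNase-seq of Saos-2 and U2OS was available as 1 list of hotspots per library. Digestion with DNase I took 3 min at 37 °C and amplification 8 to 10 PCR cycles, per the labels' protocols. Per the submitters' processing notes, Trimmomatic 0.38, BWA 0.7.15 and hg38 were used; the hotspot caller, read filters and depth are not given in the sources used here. The deposited lists hold, per hotspot, a −log10 value, taken from its range as significance at a false discovery rate of 0.05, and a score that rounds 10 times that value and was not used. The lists have no header.

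Hotspots were overlapped with RefSeq gene spans of GRCh38.p14 in Python 3.11.15 with pandas 2.3.3 and scipy 1.17.1, and interval functions were tested on simulated data. Starts were converted to 1-based positions. With 1 library per line, counts, covered bases and Wilson 95% intervals are given without tests. Promoter windows came from a RefSeq table and lacked 26 of the genes. No genome sequence was used.

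Genes were named by rule: 15 fixed genes; per line the 5 of greatest covered length among those without a hotspot in the other line; the 5 with the most covered bases in both; those at the 3 highest values per line; and those with a promoter hotspot in 1 line. Every other keratin or claudin given a value was picked after its values were seen, and so was the comparison with the 2 Mb flanks. The genes, lists and rules were chosen with earlier results of these data known. The alternatives were other windows, lists of equal length, stricter values or widths, merging and stricter overlap.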

Additional observations from a re-analysis of the deposited data

How the results depend on the processing

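No paired analysis was possible because each line has 1 library, and leaving out a replicate was not possible either. Of 106 recomputed counts and shares, 69 stayed within 1.5 times the value above or, for shares, within its interval. In 42 of 43 comparisons of the lines U2OS stayed higher. The exception was the claudin loci with gene spans only, at 16 hotspots in Saos-2 and 14 in U2OS. These comparisons recount overlapping parts of the same 2 lists, so they are not independent. The U2OS list was also the longer one in every setting except lists of equal length. Most changes followed from the window by construction.

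With gene spans only, 11 genes had a hotspot in Saos-2 and 17 in U2OS, 10 in both, 1 in Saos-2 alone and 7 in U2OS alone. There were then 26 distinct hotspots in Saos-2 and 40 in U2OS, with 1 and 5 in the type I cluster and 9 and 21 in the type II cluster. With 50 kb on each side, 65 genes had a hotspot in Saos-2, 65 in both lines, 0 in Saos-2 alone and 12 in U2OS alone. The distinct hotspots were then 108 and 165, with 69 and 82 at claudin loci. Over its whole interval the type I cluster had 18 in Saos-2.

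Hotspots of at least 200 bp left 23 genes in Saos-2 and 21 in both lines, and 29 and 65 distinct hotspots. Of these, 3 in Saos-2 were in the type I cluster, 22 in U2OS in the type II cluster, and 14 and 21 at claudin loci. Lists of equal length gave 4 genes in Saos-2 alone and 19 in U2OS alone, with 2 genes with a promoter hotspot in U2OS. The distinct hotspots were then 52 in Saos-2 and 78 in U2OS, with 10 and 25 in the type I cluster, 18 and 27 in the type II cluster, and 24 and 26 at claudin loci, so the lines were close at the claudins. When at least 50% of both hotspots had to overlap, the shared parts were 50% of Saos-2 and 26.5% of U2OS hotspots. Around either gene end of all 77 genes, 3 genes had a hotspot in Saos-2 and 9 in U2OS within 500 bases, and 3 and 12 within 1 kb.

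Read depth is unknown, so absence of a hotspot means only that none was called in that list.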
